A study of Mus musculus with 12 samples.

Results

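The genes described here encode the proteins of the cytosolic ribosome. They were chosen by name: every protein-coding entry whose symbol is Rpl or Rps followed by a number, with a short suffix allowed, together with Rpsa, Rplp0, Rplp1 and Rplp2. The rule gave 85 genes of the 46078 in the count file, 33 for the small subunit and 52 for the large subunit, the 3 stalk genes among them. It left out 17 protein-coding entries with similar symbols, among them 10 Rps6k kinase genes and 6 entries with -ps in the symbol. Of the 85 genes, 83 passed the filter on low counts in every comparison. Rpl10l, with 3 counts over all 12 libraries, and Rpl39l, with 67, did not and were not tested.

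RNA was sequenced from splenic B cells of C57BL/6 mice aged 8 to 12 weeks, separated into marginal zone (MZ) and follicular (FO) cells. The 4 groups held 3 libraries each: MZ CKO, MZ Control, FO CKO and FO Control. CKO mice carried VAVcre and a conditional Zbtb24 allele, and Control mice carried VAVcre and are also labelled WT, so both groups carry the Cre transgene, which the Vav promoter drives in blood-forming cells and thus not in B cells alone. The separation used a magnetic kit. Each library has an animal number, and the same 6 numbers occur once among the MZ and once among the FO libraries. It is taken from these labels, and not otherwise known, that a shared number means a shared mouse.

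A ribosome joins a small subunit, which reads the messenger RNA, to a large subunit, which forms the peptide bond, and each subunit is built from ribosomal RNA and a fixed set of proteins made in near-equal numbers. In mammals most ribosomal protein messages start with a C followed by a run of pyrimidines, the 5′ terminal oligopyrimidine (TOP) motif, through which the mTOR pathway and LARP1 control their translation together. Resting B cells hold few ribosomes and make more when activated. MZ B cells are innate-like cells that meet blood-borne antigen and turn into antibody-secreting cells faster than the recirculating FO B cells do.

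Sequence at the annotated start of transcription was read from RefSeq (GRCm38.p6), which had an entry for 65 of the 85 genes. A C at the first base with pyrimidines at the next 4 or more bases was present in 14 of the 65 (21.5%), against 2.94% of the 10592 protein-coding genes with an entry among those tested. A gene with several annotated starts was counted if any of them had the run. The windows shown here run from 15 bases before the start through 15 bases from it, and capitals mark the pyrimidine run from the annotated start. Where a gene had several starts, the window with the longest run was taken. The top 6 are genes with such a run, shown as examples of the run, which most of the 65 annotated starts lack, and the last 3, with no capitals, are genes with large differences between MZ and FO cells whose annotated start has no such run.
Rpl15 (chr14:18270972-18271001, minus strand): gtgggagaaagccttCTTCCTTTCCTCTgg
Rpl35 (chr2:39005117-39005146, minus strand): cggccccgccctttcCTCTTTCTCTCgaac
Rps10 (chr17:27635230-27635259, minus strand): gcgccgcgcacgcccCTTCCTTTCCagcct
Rps18 (chr17:33955651-33955680, minus strand): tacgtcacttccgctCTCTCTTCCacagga
Rps6 (chr4:86857353-86857382, minus strand): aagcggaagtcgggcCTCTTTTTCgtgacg
Rplp2 (chr7:141447636-141447665, plus strand): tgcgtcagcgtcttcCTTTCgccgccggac
Rps12 (chr10:23787195-23787224, minus strand): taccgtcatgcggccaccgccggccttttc
Rplp0 (chr5:115559452-115559481, plus strand): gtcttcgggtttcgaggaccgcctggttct
Rpl36a (chrX:134585639-134585668, plus strand): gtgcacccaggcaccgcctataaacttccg
The Rps12 window holds a pyrimidine run that begins after the annotated start, and an annotated start can differ from the one used in a cell, so the count of genes with the motif depends on the annotation.

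The 300 bases around each start were also searched on both strands for 3 motifs. CCGGAA, the core bound by ETS factors such as GABP, occurred in 36 of the 65 promoters (55.4%), against 29.9% of the 10592. CACGTG, the E-box that MYC binds, occurred in 6 (9.23%), against 11.1%. CAGGACCT, reported as part of the motif bound by ZBTB24, occurred in 1 (1.54%), against 2.19%. The 3 motifs were counted separately, with a match at any annotated start of a gene counted, and a match is a description of the sequence only.

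The libraries held 36340116 to 44629250 gene counts each. Zbtb24, the targeted gene, stood at 46.4, 41.8 and 41.9 CPM (counts scaled to a common library size) in MZ CKO libraries, against 49.1, 53.0 and 54.4 CPM in MZ Control libraries. In FO CKO libraries it stood at 48.3, 46.9 and 50.04 CPM, against 62.5, 60.8 and 60.8 CPM in FO Control libraries. Neither difference passed edgeR's quasi-likelihood test, and counts of the whole gene do not part deleted from kept exons. All 7 MZ B cell markers were higher and all 4 FO B cell markers lower in MZ than in FO libraries in both genotypes.

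Expression of the family differed between the cell types and, in these data, not detectably between the genotypes. In CKO mice the 85 genes took 8.82, 7.47 and 7.91% of all gene counts in MZ libraries, against 6.11, 6.07 and 6.62% in FO libraries. In Control mice they took 8.17, 7.96 and 8.06% in MZ libraries, against 6.08, 6.24 and 5.84% in FO libraries. Every MZ library lay above every FO library, and the highest share belonged to the MZ library of CKO mouse 1512. The means were 8.07 ± 0.685% in MZ CKO and 8.06 ± 0.108% in MZ Control libraries, and 6.27 ± 0.307% in FO CKO and 6.05 ± 0.204% in FO Control libraries (SD, n = 3 each). These are shares of the counted RNA of each library. The RNA per cell was not measured, and fewer cells of a type and less RNA per cell cannot be told apart in such bulk samples.

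**Figure D1:**
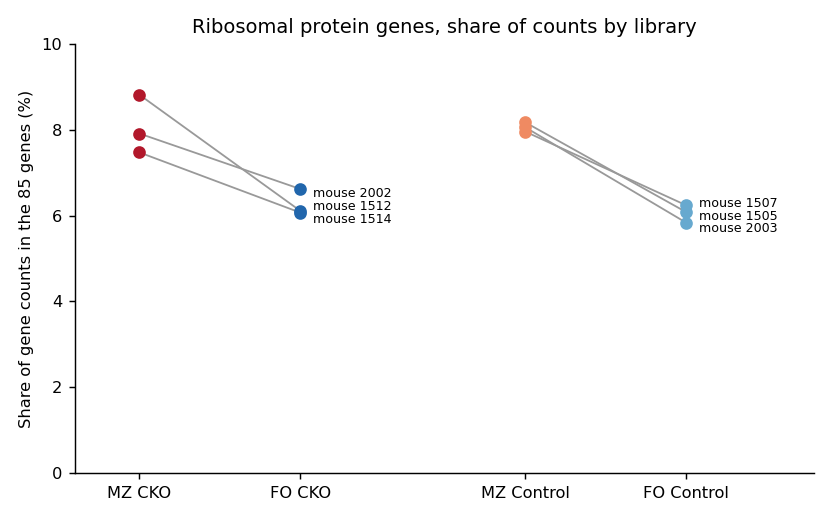
Share of all gene counts held by the 85 ribosomal protein genes (y axis, %), by group (x axis); points are libraries and grey lines join the libraries with the same animal number. All 6 MZ points, from 7.47 to 8.82%, lie above all 6 FO points, from 5.84 to 6.62%.

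Per length, the highest levels belonged to Rplp1, Rps15, Rps3a1, Rplp0 and Rps27, with 3147, 1899, 1432, 1413 and 1339 RPKM (CPM per kilobase of exon) as means over the 4 groups. Rplp1 and Rplp0 form the stalk of the large subunit, where elongation factors bind. Among the 77 tested genes other than the tissue-restricted or duplicate forms named under the paralogs, the middle 80% lay between 176 and 1121 RPKM. The lowest levels among genes counted in every library belonged to Rpl39l (0.171 RPKM), Rpl3l (0.262), Rpl24 (3.21), Rpl22l1 (18.6) and Rps27l (20.1). Rpl24 encodes a core protein of the large subunit, and 71.5% of its principal transcript lies in exons that the annotation also gives to a second gene, Gm28037. Reads on exons of more than 1 gene have their own entry in the count file, 3.29 to 5.55% of listed reads. Rps10, with 91.6% of its principal transcript in exons of another gene, stood at 275 RPKM. The part of such overlap in the level of Rpl24 was not tested. The length chosen changes some levels: on the length of the shortest principal transcript Rps27 stood at 4048 RPKM.

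Many ribosomal protein genes have processed pseudogenes that copy their transcript. Of the stretches of 50 bases in the principal transcript, a median of 61.2% over the 83 tested genes also occurred in a transcript of another gene, with a range of 0 to 98.6%. Reads that aligned to more than 1 place were set apart in the count file and held 23.9 to 28.7% of listed reads in MZ CKO, 24.1 to 27.8% in MZ Control, 21.4 to 27.7% in FO CKO and 19.6 to 23.6% in FO Control libraries. These shares overlapped between MZ and FO libraries in CKO mice and did not in Control mice, and their part in the differences was not tested. Levels of genes with large shared stretches, such as Rps27 (98.6%), Rpl35 (95.1%) and Rps12 (90.1%), are thus uncertain.

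The comparison of MZ with FO B cells asks how the cell types differ within a genotype. In CKO mice 62 of the 83 genes were higher in MZ than in FO libraries and 0 were lower by edgeR's quasi-likelihood test, with a threshold of 0.05 on the p adjusted by Benjamini-Hochberg across the whole table. Of the 17712 genes tested, 10.5% were called higher, 7.78% lower and 18.3% in either direction. In Control mice 81 of 83 were higher and 0 lower, where of the 17830 genes tested 14.9% were called higher, 13% lower and 27.9% in either direction. The median log2 fold change over the 83 genes was 0.42 in CKO mice (a fold of 1.34) and 0.44 in Control mice (a fold of 1.36), against -0.01 and 0.01 over all genes tested. The middle 80% of the log2 values ran from 0.24 to 0.60 in CKO mice and from 0.30 to 0.61 in Control mice. The SD of the log2 values over the genes was 0.18 in CKO mice and 0.13 in Control mice, with a median SE of a single gene of 0.10 and 0.07. Over the 77 tested genes other than the paralogs the SD in CKO mice was 0.122, with a median SE of 0.105. In Control mice it was 0.119, with a median SE of 0.069. The SE of a gene also takes in differences between mice that the genes share. Whether the genes differ from one another was thus not tested.

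Single mice showed the same direction. In CKO mice 1512, 1514 and 2002, 82, 80 and 81 of the 83 genes were higher in the MZ than in the FO library, with median log2 ratios of 0.60, 0.35 and 0.26. In Control mice 1505, 1507 and 2003, 83, 83 and 82 were higher, with medians of 0.44, 0.37 and 0.53. In CKO mice 79 genes were higher in MZ in all 3 mice, against 29.2% of all genes, and in Control mice 82 were, against 32.9%. Every MZ library lay above every FO library for 66 genes in CKO mice, against 18.6% of all genes, and for 82 in Control mice, against 22.2%.

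The count in CKO mice rested in part on mouse 1512. Without both of its libraries, 4 of the 83 genes passed (Rpl10a, Rpl32, Rpl36a and Rplp0), where 5.69% of all genes passed, and 82 of 83 still had a positive log2 fold change, with a median of 0.30. Leaving out its FO library alone gave 15 genes, where 10.5% of all genes passed in either direction, and its MZ library alone 36, where 12.3% did. Without FO CKO replicate 2, from mouse 1514, the count was 26, where 13.6% of all genes passed. With all 6 libraries 18.3% of all genes had passed, so fewer genes were called over the whole table too. In all these fits 0 genes were lower. With the animal number as a block, 76 genes passed in CKO mice, where 35.8% of all genes passed, and 82 in Control mice, where 43.8% did.

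**Figure D2:**
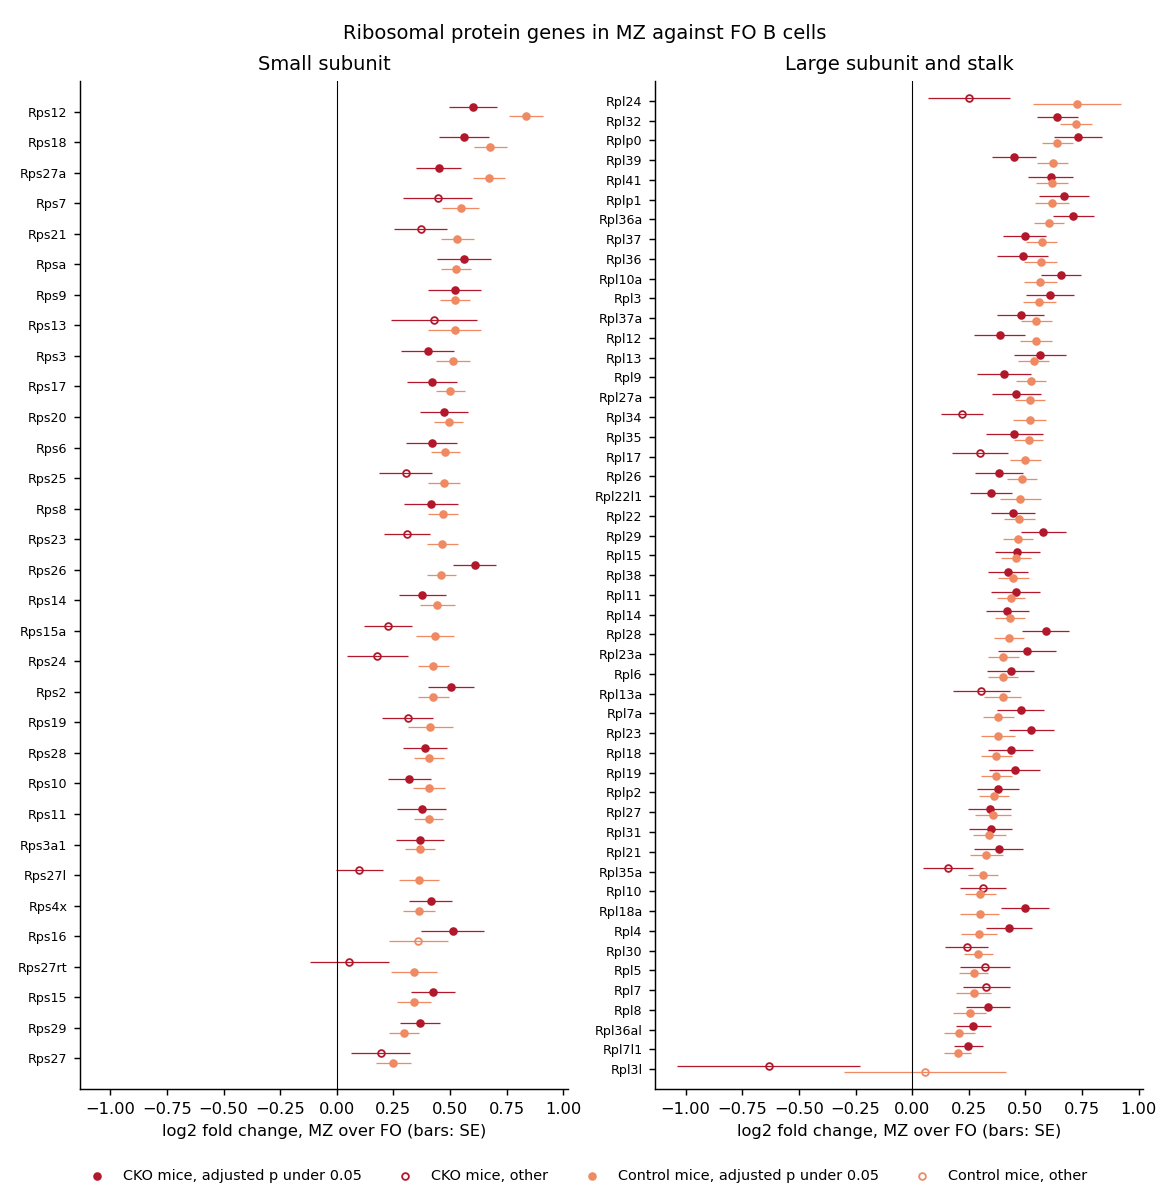
Log2 fold change of MZ over FO B cells (x axis; bars, 1 SE) for 82 of the 83 tested genes (y axis), small subunit on the left, large subunit and stalk on the right, CKO mice in dark red and Control mice in orange; filled points passed at an adjusted p under 0.05. Nearly all points lie right of 0, with Rpl3l in CKO mice at -0.63 the exception, and more points are open in CKO mice (21) than in Control mice (2).

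The 3 stalk genes were all higher in MZ libraries. Rplp0 (ENSMUSG00000067274, GRCm38 chromosome 5, 115559467 to 115563727) stood at 3365, 2903 and 2697 CPM in MZ CKO libraries, against 1740, 1850 and 1845 CPM in FO CKO libraries, and at 2743, 2873 and 2751 CPM in MZ Control libraries, against 1803, 1850 and 1713 CPM in FO Control libraries. The groups did not overlap, and the MZ library of mouse 1512 was the highest. The log2 fold change was 0.73 (SE 0.11, edgeR adjusted p = 0.00149) in CKO mice and 0.64 (SE 0.07, edgeR adjusted p = 3.23e-05) in Control mice. Rplp1, which pairs with Rplp2 on the stalk, had log2 fold changes of 0.67 in CKO mice and 0.62 in Control mice. Rplp2 had the smaller values of 0.38 and 0.36.

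Among the small subunit genes 22 of 33 were higher in MZ cells in CKO mice (median log2 0.41), against 10.5% of all genes. In Control mice 32 of 33 were (median log2 0.44), against 14.9%. Rps12, whose protein sits at the head of the small subunit (ENSMUSG00000061983, chromosome 10, 23785183 to 23787275), stood at 1143, 1003 and 1167 CPM in MZ CKO libraries, against 682, 685 and 831 CPM in FO CKO libraries. In Control mice it stood at 1185, 1028 and 1143 CPM in MZ libraries, against 636, 652 and 595 CPM in FO libraries, the largest log2 difference of the family there (0.83, SE 0.07, edgeR adjusted p = 9.26e-06). In CKO mice the log2 fold change of Rps12 was 0.60 (SE 0.10, edgeR adjusted p = 0.00401). No FO library reached the lowest MZ library in either genotype.

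Rps6, the protein that S6 kinases phosphorylate when mTOR is active, stood at 1348, 1054 and 1205 CPM in MZ CKO libraries, against 850, 858 and 1004 CPM in FO CKO libraries. In Control mice it stood at 1187, 1187 and 1237 CPM in MZ libraries, against 838, 882 and 871 CPM in FO libraries. The message level rose by a log2 of 0.42 in CKO mice and 0.48 in Control mice, and phosphorylation is not measured by RNA sequencing. Rpsa, which encodes the small subunit protein also known as the laminin receptor, rose by 0.56 in CKO mice and 0.53 in Control mice. The other small subunit genes with the largest log2 fold changes among those that passed were Rps26 (0.61) in CKO mice, and Rps18 (0.68) and Rps27a (0.67), which encodes a fusion of ubiquitin with a ribosomal protein, in Control mice.

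Among the 47 tested large subunit genes outside the stalk, 37 were higher in MZ cells in CKO mice (median log2 0.43), against 10.5% of all genes. In Control mice 46 were (median log2 0.44), against 14.9%. Rpl36a (ENSMUSG00000079435, chromosome X, 134585654 to 134588062) stood at 529, 449 and 438 CPM in MZ CKO libraries, against 281, 285 and 305 CPM in FO CKO libraries, and at 425, 463 and 441 CPM in MZ Control libraries, against 288, 301 and 286 CPM in FO Control libraries. These groups were far apart relative to the spread within each, with log2 fold changes of 0.71 (SE 0.09, edgeR adjusted p = 0.000725) in CKO mice and 0.60 (SE 0.06, edgeR adjusted p = 3.46e-05) in Control mice. Rpl32 (ENSMUSG00000057841, chromosome 6, 115805505 to 115808747) stood at 1336, 1164 and 1301 CPM in MZ CKO libraries, against 797, 773 and 882 CPM in FO CKO libraries, and its log2 fold change was 0.64 in CKO mice and 0.72 in Control mice. The remaining large subunit genes among the 10 with the largest log2 fold changes were Rpl10a (0.66), Rpl41 (0.61), Rpl3 (0.61) and Rpl28 (0.59) in CKO mice. In Control mice they were Rpl24 (0.73), Rpl39 (0.62) and Rpl41 (0.62).

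Rpl24 (ENSMUSG00000098274, chromosome 16, 55966275 to 55971435) is the least firmly measured of these, at 4.02, 3.23 and 3.397 CPM in MZ CKO libraries, against 3.22, 2.67 and 3.12 CPM in FO CKO libraries, and at 3.75, 4.47 and 4.26 CPM in MZ Control libraries, against 2.81, 1.96 and 2.76 CPM in FO Control libraries. Its edgeR adjusted p was 0.403 in CKO mice and 0.0155 in Control mice. Over the alternatives the edgeR, DESeq2 or limma-voom adjusted p in Control mice ran between 5.95e-05 and 0.0632, the highest reached without FO Control replicate 2.

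**Figure D3:**
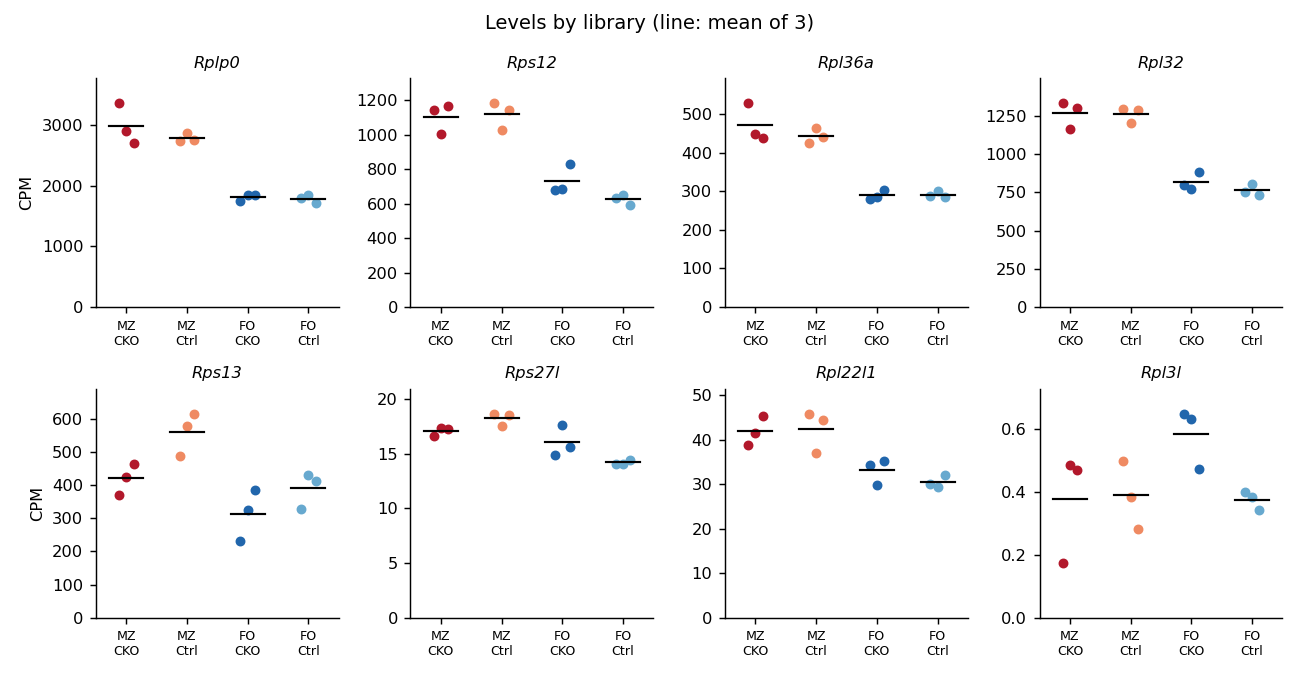
CPM (y axis, from 0) by library for 8 genes, with groups on the x axis in the order MZ CKO, MZ Control, FO CKO, FO Control; points are libraries and lines are means of 3. For Rplp0, Rps12, Rpl36a and Rpl32 the MZ libraries lie above all FO libraries, for Rps13 the CKO libraries average below the Control libraries in both cell types, and Rpl3l stays under 0.65 CPM.

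Genes called in Control mice alone numbered 20 in the fit without a block. They were Rpl5, Rpl7, Rpl10, Rpl13a, Rpl17, Rpl24, Rpl30, Rpl34, Rpl35a, Rps7, Rps13, Rps15a, Rps19, Rps21, Rps23, Rps24, Rps25, Rps27, Rps27l and Rps27rt. Rps16 passed in CKO mice alone, Rpl3l in neither, and 61 genes passed in both. These sets depend on the fit. With the animal number as a block, 76 genes passed in CKO mice, where 35.8% of all genes did. In Control mice 82 passed with the block, where 43.8% did. Rps24, a small subunit protein mutated in some people with Diamond-Blackfan anaemia, stood at 1200, 964 and 1235 CPM in MZ CKO libraries, against 990, 858 and 1171 CPM in FO CKO libraries, where the groups overlapped. Rps24 was still higher in the MZ than in the FO library of each CKO mouse. In Control mice it stood at 1256, 1149 and 1256 CPM in MZ libraries, against 904, 948 and 872 CPM in FO libraries, and the groups were apart (log2 0.43, SE 0.07, edgeR adjusted p = 0.000791). A gene that passed in 1 genotype alone is not thereby shown to differ between genotypes, and the test of that difference, given with the genotype comparisons, called none of them. Across the 83 genes the log2 fold changes of CKO and Control mice, which share no library, had a Spearman rho of 0.54 and a Pearson r of 0.60, a description across genes that were measured in the same libraries.

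The genes were also grouped by the percentage of their stretches found elsewhere. Of 5 tested genes with under 10% of their 50-base stretches found elsewhere, 4 were higher in MZ cells in both genotypes, among them Rps3, Rps20 and Rpl8. The percentage of Rps20 (7.57%) was taken over a principal transcript of 3706 bases and depends on that length. Its shared stretches occurred in 50 other genes. Rps3, a small subunit protein at the entry of the messenger RNA channel, with 2.96% shared, stood at 1937, 1522 and 1833 CPM in MZ CKO libraries, against 1270, 1253 and 1509 CPM in FO CKO libraries, and at 1787, 1731 and 1812 CPM in MZ Control libraries, against 1243, 1353 and 1142 CPM in FO Control libraries. The groups did not overlap in either genotype. Its log2 fold change was 0.40 in CKO mice and 0.51 in Control mice. With 10 to 60% shared, 26 of 36 genes were higher in CKO mice and 35 of 36 in Control mice, and with over 60% shared, 32 of 42 and 42 of 42. Over all genes tested, 10.5% were higher in CKO mice and 14.9% in Control mice. Across the 83 genes the Spearman rho between the log2 fold change and the shared percentage was 0.05 in CKO mice and 0.11 in Control mice. The part of reads aligned to more than 1 place in the difference was not tested.

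The difference was present with and without a pyrimidine run at the annotated start. An annotated start can differ from the one used, so genes without such a run may still have TOP messages. These classes thus do not separate TOP genes from other genes. Of the 14 genes with a TOP-type annotated start, 9 were higher in MZ cells in CKO mice (median log2 0.40) and 14 in Control mice (median log2 0.43). Of the 49 tested genes with another annotated start, 36 were higher in CKO mice (median log2 0.43) and 47 in Control mice (median log2 0.46). Over all genes tested, 10.5% were higher in CKO mice and 14.9% in Control mice. Rps18, with the run shown above, rose by 0.56 in CKO mice and 0.68 in Control mice, and Rplp0, with no run at its annotated start, by 0.73 and 0.64.

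The family has paralogs, second copies of a ribosomal protein gene that in part have their own expression pattern. Of the 8 such genes among the 85, 6 were tested, and 3 were higher in MZ cells in CKO mice (median log2 over the 6, 0.17) and 5 in Control mice (median log2 0.27). The shares over all genes tested were 10.5% and 14.9%. Rpl22l1, whose protein can take the place of Rpl22, stood at 38.9, 41.5 and 45.3 CPM in MZ CKO libraries, against 34.5, 29.7 and 35.2 CPM in FO CKO libraries, and at 45.9, 37.0 and 44.5 CPM in MZ Control libraries, against 30.0, 29.5 and 32.0 CPM in FO Control libraries. It rose by a log2 of 0.35 in CKO mice and 0.48 in Control mice, and Rpl22 by 0.44 and 0.47. The edgeR adjusted p was 0.0306 and 0.00215 for Rpl22l1.

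Rps27l, a p53-responsive form of Rps27, stood at 16.6, 17.4 and 17.2 CPM in MZ CKO libraries, against 14.9, 17.6 and 15.6 CPM in FO CKO libraries, and at 18.7, 17.5 and 18.6 CPM in MZ Control libraries, against 14.1, 14.1 and 14.5 CPM in FO Control libraries. The CKO groups overlapped and the Control groups did not. Its log2 fold change was 0.10 (SE 0.10, edgeR adjusted p = 0.576) in CKO mice and 0.36 (SE 0.09, edgeR adjusted p = 0.0105) in Control mice. Rps27 had 0.19 and 0.25, and Rps27rt, a single-exon copy of Rps27 with 91.1% of its stretches shared, had 0.06 and 0.34.

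Rpl36al rose by a log2 of 0.27 in CKO mice and 0.21 in Control mice, beside 0.71 and 0.60 for Rpl36a. Rpl7l1 rose by 0.25 and 0.20, and Rpl7 had 0.33 (edgeR adjusted p = 0.0589) in CKO mice and 0.27 in Control mice. Rpl3l, the striated muscle form of Rpl3, stood at 0.174, 0.484 and 0.470 CPM in MZ CKO libraries, against 0.648, 0.630 and 0.472 CPM in FO CKO libraries, and at 0.499, 0.383 and 0.282 CPM in MZ Control libraries, against 0.398, 0.383 and 0.341 CPM in FO Control libraries. It passed in neither genotype. The testis form Rpl10l had 0 counts in all 6 MZ libraries and in 4 of the 6 FO libraries, while its X-linked parent Rpl10 had a log2 fold change of 0.31 in CKO mice (edgeR adjusted p = 0.0644) and 0.30 in Control mice (edgeR adjusted p = 0.00665). Rpl39, the parent of Rpl39l, rose by 0.45 in CKO mice and 0.62 in Control mice. Rps4x rose by 0.42 and 0.36, and Rps3a1 by 0.37 in each genotype.

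All 4 family members on chromosome 10, which also carries Zbtb24, were higher in MZ cells in both genotypes. They were Rps12, Rps26, Rpl41, which encodes the shortest protein of the ribosome, and Rps15. Rps15 stood at 1563, 1319 and 1296 CPM in MZ CKO libraries, against 1036, 1002 and 1093 CPM in FO CKO libraries, with log2 fold changes of 0.42 in CKO mice and 0.34 in Control mice. Of the 4 X-linked genes, 3 were higher in CKO mice and 4 in Control mice. The counts on both chromosomes stand against 10.5% of all genes higher in CKO mice and 14.9% in Control mice. Among ribosomal proteins with other names, Rack1, a scaffold on the small subunit, rose by a log2 of 0.44 in each genotype. Fau, which encodes a small subunit protein fused to a ubiquitin-like one, had 0.20 in CKO mice (edgeR adjusted p = 0.264) and 0.22 in Control mice (edgeR adjusted p = 0.035).

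The genotype comparisons ask whether deletion of Zbtb24 goes with a change of these genes within a cell type. In MZ cells 0 of the 83 genes passed edgeR's quasi-likelihood test between CKO and Control mice, where of the 17658 genes tested 0.0566% were higher, 0.0227% lower and 0.0793% called in either direction, and 2 had an unadjusted p under 0.05. In FO cells 0 of 83 passed, where of 17777 genes 0.0563% were higher, 0.0338% lower and 0.09% called in either direction, and again 2 had an unadjusted p under 0.05. With the replicate block 0 passed in either cell type, where 0.323% of all genes did in MZ and 0.141% in FO cells. DESeq2 and limma-voom also called 0 in each cell type, with 2 and 2 genes under an unadjusted 0.05 in MZ and 4 and 2 in FO cells. The median log2 fold change of CKO over Control was 0.04 in MZ and 0.06 in FO cells, and it was positive for 56 genes in MZ and 72 in FO cells. These sign counts rested on single libraries: without MZ CKO replicate 1, from mouse 1512, 15 of the 83 were positive in MZ cells, and without FO CKO replicate 3, 48 were in FO cells. For 80 of 83 genes in each cell type the 95% interval of the fold change lay within 1.5-fold in either direction. The exceptions in both were Rpl24, Rpl3l and Rps13.

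**Figure D4:**
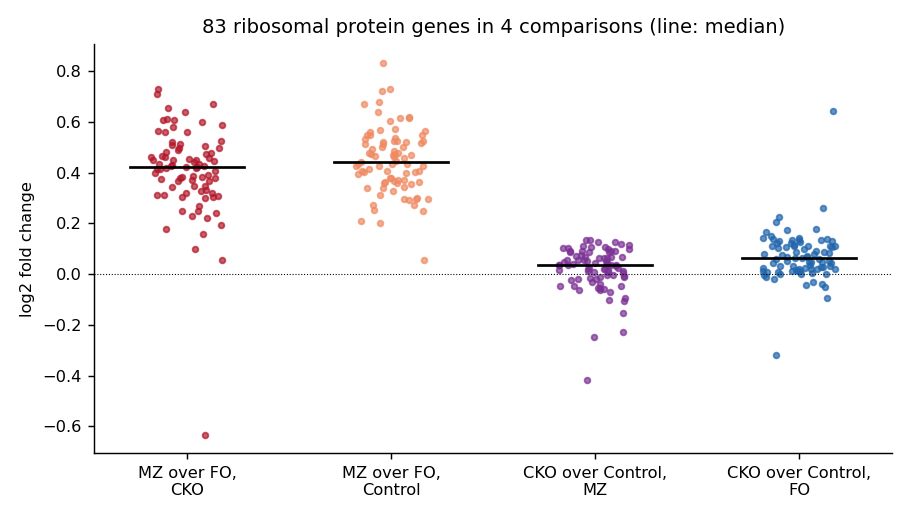
Log2 fold change (y axis) of the 83 tested genes in 4 comparisons (x axis), MZ over FO in CKO and in Control mice and CKO over Control in MZ and in FO cells; points are genes, spread sideways for display, and black lines are medians (0.42, 0.44, 0.04 and 0.06). The MZ over FO points lie mostly above 0.2 and the CKO over Control points mostly within 0.2 of 0.

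Rps13 (ENSMUSG00000090862, chromosome 7, 116331505 to 116334195), which encodes a small subunit protein, had the smallest p in MZ cells. It stood at 371, 424 and 464 CPM in MZ CKO libraries, against 488, 578 and 615 CPM in MZ Control libraries, and the groups did not overlap. The log2 fold change was -0.42 (SE 0.11, 95% interval -0.66 to -0.17), with an unadjusted p of 0.00302 and an adjusted p of 0.985 in edgeR. Without a filter on low counts the edgeR adjusted p was 0.00656, the lowest of the alternatives, which ran up to 1. In FO cells Rps13 stood at 232, 323 and 384 CPM in CKO libraries, against 329, 431 and 413 CPM in Control libraries, where the groups overlapped (log2 -0.32, SE 0.21). In the transcript of Rps13, most of the stretches also occur elsewhere, so its counts are uncertain.

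Rps15a stood at 665, 605 and 756 CPM in MZ CKO libraries, against 765, 813 and 828 CPM in MZ Control libraries (log2 -0.25, SE 0.10, edgeR unadjusted p = 0.0271). Rps26, with the third smallest p in MZ cells, had a log2 fold change of 0.13. In FO cells the smallest p belonged to Rpl34, at 382, 339 and 402 CPM in CKO libraries, against 331, 343 and 303 CPM in Control libraries (log2 0.20, SE 0.08, edgeR unadjusted p = 0.0255). Rps12 followed with 0.23 and Rpl3l with 0.64. None of these passed after adjustment. All CKO libraries lay below all Control libraries in MZ cells for Rps13, Rps15a and Rps27l, 3 of 83 genes where 3.98% of all genes did so, and above for 0, where 3.65% did. They lay above in FO cells for Rpl3l, Rpl9, Rps12, Rps18 and Rps27l, 5 of 83 where 4.44% did so, and below for 0, where 4.88% did.

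The difference between the genotype effects of the cell types, fitted over all 12 libraries, also passed for 0 of 83 genes in edgeR, where 0% of 18546 genes passed, with 2 genes under an unadjusted p of 0.05. DESeq2 and limma-voom called 0 as well, with 1 and 2 genes under 0.05. With the animal number as block edgeR also called 0, where 0.0216% of all genes passed. In that fit 7 of the 83 genes had an unadjusted p under 0.05, against 968 of the 18546 genes tested. For 77 genes the 95% interval lay within 1.5-fold in either direction. The smallest p belonged to Rpl34 (log2 -0.31, SE 0.12, edgeR unadjusted p = 0.0236), Rps27l (-0.27, SE 0.12) and Rpl24 (-0.49, SE 0.25). The stalk genes had values of 0.01 to 0.08.

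The rest of the translation machinery was followed through lists of genes. Their counts stand against 10.5% higher and 7.78% lower over all genes in CKO mice, and 14.9% higher and 13% lower in Control mice. Of 7 elongation factor genes, 6 were higher in MZ cells and 0 lower in CKO mice (median log2 0.43), and likewise 6 and 0 in Control mice (median log2 0.30). Eef1b2, the nucleotide exchange subunit of elongation factor 1, stood at 636, 499 and 543 CPM in MZ CKO libraries, against 349, 353 and 356 CPM in FO CKO libraries, and rose by a log2 of 0.67 in CKO mice and 0.69 in Control mice. Eef1g (0.56 and 0.38) and Eef2, the translocase (0.43 and 0.25), rose as well. Of 18 tested genes reported to carry TOP messages outside the ribosome, 12 were higher and 2 lower in CKO mice, and 14 higher and 1 lower in Control mice. Vim, the intermediate filament gene vimentin, was lower in both (log2 -1.41 and -1.94), and Npm1, a nucleolar chaperone, higher (0.69 and 0.70). Several genes of this list, all 3 Eef genes named here among them, also stand in the other lists.

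Factors that act before elongation, or that build the ribosome, showed smaller medians. Of 29 initiation factor genes, 4 were higher and 1 lower in CKO mice (median log2 0.20), and 8 higher and 0 lower in Control mice (0.10). Eif4a1 rose by 0.46 and 0.33, and Eif1, which guards start codon choice, was lower in CKO mice (-0.42). Of 49 ribosome biogenesis genes, 20 were higher and 0 lower in CKO mice (0.19), and 18 higher and 0 lower in Control mice (0.15), led by Rrp1b (0.87 and 0.75). Of 20 genes of RNA polymerase I, which transcribes ribosomal RNA, 6 were higher and 1 lower in CKO mice, and 5 higher and 2 lower in Control mice. Polr1a, its largest subunit, rose by 0.42 and 0.31. Of 77 mitochondrial ribosomal protein genes, a list added after values were seen, 7 were higher and 0 lower in CKO mice (0.12), and 9 higher and 1 lower in Control mice (0.09). The share of mitochondrial ribosomal protein genes called higher lay near that of all genes in both genotypes, and the share of biogenesis genes called higher lay above it.

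The next 3 lists were small. Their counts stand against 18.3% of all genes called in either direction in CKO mice and 27.9% in Control mice, with the shares by direction given above. Of 13 genes for chaperones of ribosomal proteins and for export and surveillance, 2 were higher and 1 lower in CKO mice, and 2 higher and 2 lower in Control mice. Heatr3, a factor for import of Rpl5, rose by 0.51 and 0.47. Of 17 mTOR and TOP regulators, 3 were higher and 1 lower in CKO mice, and 2 higher and 2 lower in Control mice. Myc, a transcription factor that drives ribosome production, stood at 136, 167 and 125 CPM in MZ CKO libraries, against 64.8, 68.0 and 61.4 CPM in FO CKO libraries, and rose by a log2 of 1.15 in CKO mice and 1.13 in Control mice. Mxd4, a partner of MAX that opposes MYC, rose by 1.22 and 0.99, and Tsc1, an inhibitor of mTOR complex 1, fell by 0.38 on the log2 scale in CKO mice and by 0.41 in Control mice. Of 7 sensors of ribosome stress, 1 was higher and 1 lower in CKO mice, and 0 were higher and 3 lower in Control mice. Of 21 genes whose human counterparts are linked to Diamond-Blackfan anaemia, most of them in the family described here, 13 were higher in CKO mice and 19 in Control mice. No gene of these lists passed between the genotypes in either cell type by edgeR.

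**Figure D5:**
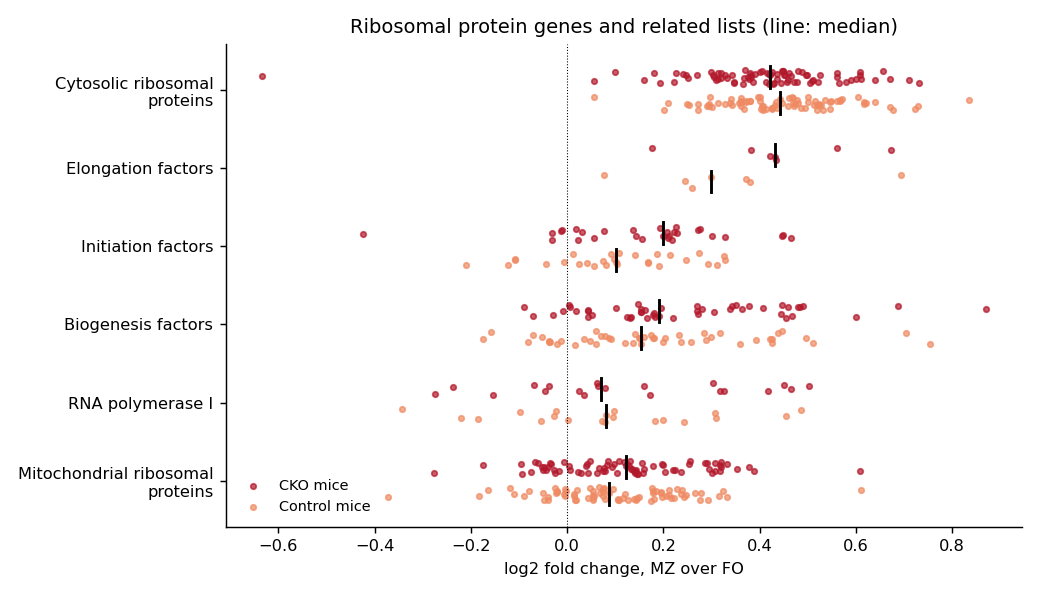
Log2 fold change of MZ over FO B cells (x axis) for the ribosomal protein genes and 5 related lists (y axis), CKO mice in dark red above Control mice in orange; points are genes and black lines are medians. The medians of the ribosomal protein genes are 0.42 in CKO and 0.44 in Control mice, and those of the mitochondrial ribosomal protein genes 0.12 and 0.09.

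Other measures were compared between the cell types. Sums of the 5 B cell defining genes were 6397 to 7557 CPM in MZ CKO and 6915 to 7258 CPM in MZ Control libraries. In FO CKO libraries they were 5782 to 6666 CPM, and in FO Control libraries 5635 to 6136 CPM. By edgeR 1 of the 5 was higher in MZ cells in CKO mice and 3 in Control mice, and 0 were lower. Over all genes 10.5% and 14.9% were higher. Mitochondrially encoded genes took 1.13 to 1.295% of gene counts in MZ CKO, 1.18 to 1.67% in MZ Control, 0.945 to 1.09% in FO CKO and 0.867 to 0.941% in FO Control libraries. All 8 T cell markers were counted, with sums of 172 to 271 CPM in MZ CKO, 204 to 292 CPM in MZ Control, 240 to 346 CPM in FO CKO and 342 to 390 CPM in FO Control libraries, and 4 NK cell markers summed to 34.6 to 49.9, 28.7 to 50.3, 61.8 to 82.5 and 47.3 to 72.9 CPM in that order. The 5 plasma cell markers did not move together: 2 were higher and 1 lower in MZ cells in each genotype, with sums of 532 to 550 CPM in MZ CKO, 528 to 588 CPM in MZ Control, 440 to 528 CPM in FO CKO and 478 to 540 CPM in FO Control libraries. The 8 macrophage and monocyte markers summed to 197 to 321, 163 to 330, 269 to 498 and 198 to 421 CPM in that order. For 9 neutrophil markers the sums were 68.9 to 241, 45.3 to 138, 118 to 395 and 73.9 to 191 CPM. Those of 5 dendritic cell markers were 32.3 to 47.2, 42.8 to 53.8, 43.6 to 67.4 and 45.3 to 65.8 CPM. Those of 8 erythroid and platelet markers were 16.4 to 218, 5.47 to 166, 17.7 to 253 and 5.80 to 199 CPM. By edgeR 1 of the 8 T cell markers was lower in MZ cells in CKO mice and 6 in Control mice, and 0 were higher. Of the 4 NK cell markers 2 were lower in CKO mice and 0 in Control mice, and 0 were higher. Over all genes 7.78% were lower in CKO mice and 13% in Control mice. The part of these measures in the difference between MZ and FO cells was not tested.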

How the data were processed

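For each of 12 libraries the authors deposited raw counts of reads per gene, under Ensembl IDs and without normalization. The submitters' processing notes name TopHat, HTSeq, DESeq2 and GRCm38/mm10. Their versions, the annotation release and the strand setting are not given in the sources used here. Per the labels' protocols, libraries were made with a TruSeq kit from 0.1 ug of total RNA. The file's 5 entries that name no gene held 43.2 to 50.4% of listed reads and were left out of library sizes and tests. Symbols, coordinates and lengths came from GENCODE M21 on GRCm38 (45229 of 46078 IDs matched). All per-sample columns matched a sample.

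Tests used edgeR 4.0.16 under R 4.3.3 (filterByExpr, TMM, robust quasi-likelihood F test, two-sided, Benjamini-Hochberg over all genes tested), on the 6 libraries of each comparison and on all 12 for the difference of genotype effects. The call threshold was an adjusted p under 0.05. Levels are CPM scaled by TMM over 12 libraries, and RPKM uses the length of the union of exons. The SE is the absolute log2 fold change over the square root of F. The code was tested on simulated data. Alternatives covered DESeq2 1.42.0, limma-voom (limma 3.58.1), other scalings, no filter, blocks and each library left out.

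The animal number pairs MZ with FO libraries, and the pairs' deviations correlated with r of 0.43 to 0.65. Between genotypes, same-numbered replicates correlated in FO (0.10 to 0.36) but not in all pairs in MZ cells (-0.07 to 0.37). The block changed no call among the 83 genes between genotypes. Over all genes it raised the number called from 14 to 57 in MZ and from 16 to 25 in FO cells. Genes named are, per comparison, the 10 with the largest fold change that passed or the 3 with the smallest p, the 5 highest and lowest per length, paralogs, stalk genes, chromosome 10 genes and leading genes of the lists. Rps6, Rpsa, Rps24, Rps3, Rps20 and Rpl8 were named after their values were seen. Members and lists were chosen with earlier results of these data known. The libraries are taken as separate mice from their numbers. Single results on 2 genes are not reported here, and counts over lists still include them.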

Additional observations from a re-analysis of the deposited data

How the results depend on the processing

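Counts of genes called between MZ and FO cells in Control mice, 81, ran from 77 to 82 under other scalings, tests and filters and from 72 to 78 with single libraries left out. In CKO mice the count, 62, ran from 46 with library totals alone to 76 with the replicate block, and from 15 to 63 with single libraries left out; without mouse 1512, a fit chosen after seeing the data, it was 4. With 2 libraries against 2, fewer genes pass overall. The replicate block gave 82 in Control mice and 0 in the genotype comparisons and the difference of genotype effects. Counts of 0 between genotypes held in all alternatives except MZ cells with no filter, where 1 gene, Rps13, passed. With single libraries left out, these counts were 0 in FO cells, MZ cells and the difference of effects. The number of mice, 3 per group, multiply aligned reads and shared exons limit these values, and how far the reads set apart bear on the family's difference was not tested. With the entries that name no gene in the denominator, the family's mean share was 4.27% in MZ CKO, 3.31% in FO CKO, 4.19% in MZ Control and 3.34% in FO Control libraries, and without immunoglobulin genes in it the shares moved by less than their SD.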

Other observations

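Entries named as ribosomal protein pseudogenes, 274 in number with a count in 221, lay outside the family. They held 0.0580 to 0.0813% of gene counts in MZ CKO, 0.0634 to 0.0757% in MZ Control, 0.0521 to 0.0598% in FO CKO and 0.0438 to 0.0518% in FO Control libraries. In CKO mice 10 of 82 tested were higher in MZ than in FO cells and 0 lower by edgeR (median log2 0.42), where 10.5% of all genes were higher, and in Control mice 20 of 79 were higher and 0 lower (median log2 0.46), where 14.9% of all genes were higher. Between genotypes 0 of 85 passed in MZ and 0 of 73 in FO cells, with medians of -0.04 and 0.06. A processed pseudogene can take reads from its parent gene, and which of the pair gave the reads was not tested.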
